A study of Saccharomyces cerevisiae with 5 samples.

Results

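The interior of chromosome II of budding yeast, Saccharomyces cerevisiae, was described site by site: the positions of chromosome II more than 30 kb from either end, that is chrII:30001-783178, and the fitted fork segments that cover them. It held 27 of the 407 initiation sites found in any of the 5 samples over all 16 chromosomes, and 150 of the 2386 windows of 5 kb. Chromosome II was picked because its summed initiation probability was high in galactose relative to glucose, so the galactose against glucose values below are descriptions, and where limma counts of that contrast are printed nothing is read from them. The sites nearest the limit were, inside it, those at 42973 and 773675 and, outside it, those at 29070 and 792011. At 29070 the probability was 0.976 and 0.859 in the galactose samples, and 0 in the glucose sample and in both wild-type samples. At 792011 it was 0.676 and 0.644 with galactose, 0.301 with glucose, and 0.494 and 0.402 in the wild type.

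The study sequenced Okazaki fragments, the short pieces of lagging strand whose strand tells which way a replication fork passed, and fitted a model of fork paths to each sample. The galactose group is 2 samples, E and G, of strain yIW160-SSDDCS, in which galactose induces the firing factors Sld2, Sld3, Dbf4, Dpb11, Cdc45 and Sld7. The glucose group is 1 sample, F, of the same strain with these 6 factors at normal expression, and the wild-type group is 2 samples, A and B, of strain yIW160. For all 5 samples the labels give the same growth text: asynchronous growth at 30 degrees, then 4 hours in fresh medium with either sugar at 2%, then doxycycline at 40 µg/ml for 2.5 hours, with no statement of which sugar the wild-type samples had. The strain with inducible factors was read as single ends on Ion Torrent and wild type as paired ends on Illumina, so platform and strain cannot be told apart, and neither can galactose medium and induction of the factors. The labels do not say that replicates are separate cultures, so the p-values cover no more than the spread seen among these 5 libraries. The deposited fits give no read counts, so the depth behind each value is unknown.

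An origin of replication is licensed when the Mcm2-7 helicase is loaded on it, and it fires when Cdc45 and GINS are joined to that helicase. Sld3 with Sld7 brings Cdc45 to the licensed origin, Sld2 and Dpb11 bring GINS, and Dbf4 activates the kinase Cdc7 that marks the helicase for this step. These factors are scarce in the cell relative to licensed origins, and an origin that has not fired by the time a neighbour's fork arrives is copied passively and leaves no initiation of its own. A fired origin sends forks both ways, so the share of rightward forks steps up across an active origin and falls again where converging forks terminate. Chromosome II carries the GAL7-GAL10-GAL1 cluster, whose genes are strongly transcribed in galactose. It was not placed here, because the build of the files' coordinates is not given in the sources used here.

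A site's initiation probability, the fitted share of cells in which forks leave it, was read as the mean of the rightward and the leftward fork probability that starts there. Sites below 0.1 were not listed and count as 0, and sites of different samples within 2500 bases of each other were merged. Summed over the interior of chromosome II, the probability was 16.3 and 17.3 initiations with galactose E and G, 10.4 with glucose, and 9.69 and 10.4 in wild-type samples A and B. Both galactose samples were thus above the other 3, and glucose lay close to wild type B. The galactose mean of 16.8 ± 0.718 (SD, n = 2) was 1.61 times the glucose value and 1.67 times the wild-type mean of 10.0 ± 0.468 (SD, n = 2), while glucose was 1.04 times wild type.

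Set against the other 15 chromosomes, chromosome II had the second highest galactose to glucose ratio after chromosome I with 1.62, and the second highest galactose to wild type ratio after chromosome XII with 1.72. Pooled over the interiors of the other 15 chromosomes the ratios were 1.39 for galactose to glucose, 1.47 for galactose to wild type and 1.06 for glucose to wild type. The galactose samples enter both ratios that rank high, so the second ratio does not check the first. Chromosome II held 6.94 and 6.73% of all interior initiations with galactose, 5.96% with glucose, and 6.19 and 5.91% in the wild type.

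**Figure D1:**
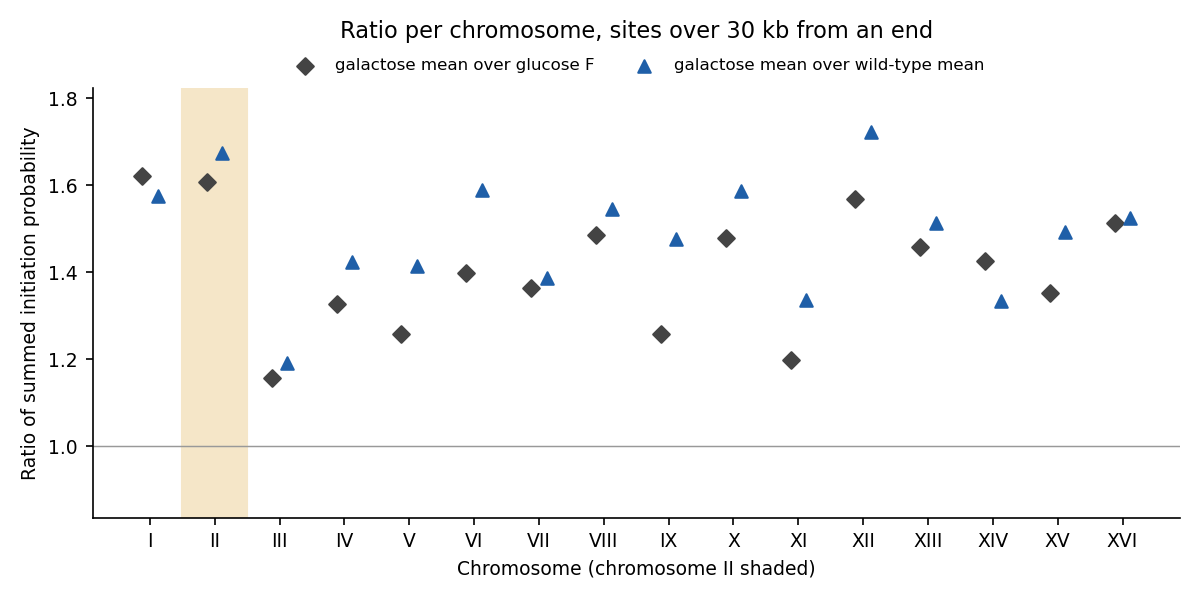
Ratio of the summed initiation probability of sites more than 30 kb from a chromosome end, for each of the 16 chromosomes; diamonds are the galactose mean over glucose F and triangles the galactose mean over the wild-type mean. Chromosome II, shaded, stands at 1.61 and 1.67, second on each measure.

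The number of sites changed little beside their probability. Galactose E and G had 20 and 22 sites, glucose 19, and wild type A and B 19 each. The mean probability of a listed site was 0.814 and 0.786 with galactose, 0.550 with glucose, and 0.510 and 0.545 in the wild type. Sites of at least 0.9, which fire in nearly every cell of the fit, numbered 9 and 8 with galactose, 5 with glucose, and 0 and 2 in the wild type. Each initiation stood for 46.3 and 43.6 kb of the interior with galactose, 72.1 kb with glucose, and 77.7 and 72.7 kb in the wild type. The difference was thus carried mainly by higher probabilities at about as many sites.

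Of the difference of 6.34 initiations between the galactose mean and glucose, the 17 sites listed in both galactose samples and in glucose made up 4.12, or 65.0%. The site at 93764, listed in galactose and wild type but not in glucose, made up 1.00, or 15.8%. The 2 sites found with galactose in E and G and nowhere else made up 1.14, or 18.0%, and 2 sites listed in galactose G alone made up 0.488, or 7.70%. Sites lost from glucose took away 0.225 and 0.185. The 5 sites with the greatest difference, at 93764, 517538, 169192, 591473 and 143724, together made up 60.0%, and the 8 greatest made up 85.8%.

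Grouped by their level in glucose, the 18 sites under 0.4 summed to 8.39 and 9.66 in galactose E and G and 2.66 in glucose, a difference of 6.36. The 8 sites of at least 0.8 in glucose summed to 7.08 and 6.85 in galactose and 7.25 in glucose, a difference of -0.284, with both galactose samples above glucose at 3 of the 8 and below it at 4. A site already near 1 has no room above it and a site at 0 none below, and these levels were chosen after seeing the data and group the sites by a value that enters the difference. The lower group includes sites 9, 12, 20 and 22, listed only because galactose reached 0.1, which could only rise. A grouping by the wild-type mean has the same limits, as it holds these sites and that mean enters the difference from wild type. Its 16 sites under 0.5 summed to 6.76 and 8.07 with galactose, 1.96 with glucose, and 2.06 and 2.07 in the wild type. The 11 sites of at least 0.5 in wild type summed to 9.52 and 9.22 with galactose, 8.48 with glucose, and 7.64 and 8.28 in the wild type.

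**Figure D2:**
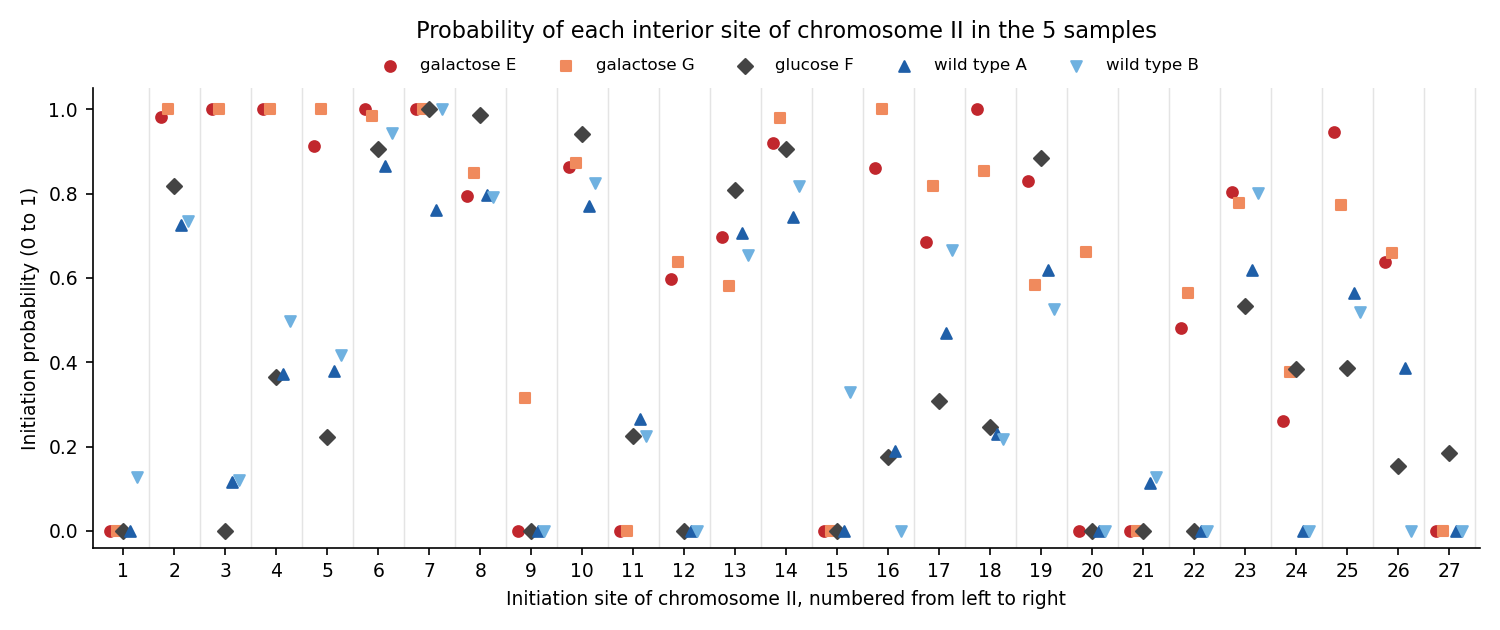
Fitted initiation probability (vertical axis, 0 to 1) of the 27 interior sites of chromosome II, numbered from left to right, with 1 point per sample; a point at 0 means that no site was listed there. Sites 3, 4, 5, 16 and 18 have both galactose samples between 0.853 and 1 and the other 3 samples between 0 and 0.499, while sites 6 to 8 are high in all 5 samples.

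Towards the left of the interior, 3 neighbouring sites that were used in a minority of glucose and wild-type cells reached nearly full use in galactose. The site at 93764 (site 3) had a probability of 1 in each galactose sample, 0 in glucose, and 0.115 and 0.122 in the wild type. It was the only one of the 27 sites that was absent in glucose and at 1 in both galactose samples, and in glucose 81.7% of the forks passing it ran rightward. The site at 143724 (site 4) had 1 and 1 with galactose, 0.366 with glucose, and 0.373 and 0.499 in the wild type. The site at 169192 (site 5) had 0.914 and 1 with galactose, 0.224 with glucose, and 0.380 and 0.418 in the wild type. No galactose value at these sites overlapped a value of the other 3 samples. These sites are among the 5 with the greatest difference from glucose, so this follows in part from their choice. Both galactose samples were above the other 3 at 51.6% of all sites, and nothing is read from it. In glucose, most forks reached sites 4 and 5 from the right, with 61.6% leftward forks just right of site 4 and 68.7% just right of site 5. The members joined at site 5 lie from 166905 in glucose to 170350 in galactose G, and in glucose the leftward and rightward starts at sites 4 and 5 differed by 0.12, so the glucose values there are less exact than their digits.

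To the left of them, site 2 at 63358 was strong in every sample, with 0.981 and 1 with galactose, 0.817 with glucose, and 0.725 and 0.735 in the wild type. Site 1 at 42973 was listed in wild type B alone, at 0.129. The galactose samples therefore had nothing listed between the chromosome-end site at 29070 and site 2.

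Sites 6, 7, 8 and 10, which lie from 198388 to 326157, were used by most cells in all 5 samples. Site 6 at 198388 had 1 and 0.984 with galactose, 0.905 with glucose, and 0.865 and 0.944 in the wild type. Site 7 at 236425 was at 1 in both galactose samples and in glucose, and at 0.760 and 1 in wild type. Site 8 at 255819 had 0.794 and 0.849 with galactose, 0.987 with glucose, and 0.796 and 0.793 in the wild type. Sites 7 and 8 thus showed no value in galactose above the highest of the other samples. Site 10 at 326157 had 0.862 and 0.873 with galactose, 0.942 with glucose, and 0.770 and 0.824 in the wild type. Site 9 at 290955 was listed in galactose G alone, at 0.315.

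Between 326157 and 486895 one weak site was lost and a stronger one appeared beside it. Site 11 at 378479 was at 0 in both galactose samples, 0.225 in glucose, and 0.267 and 0.226 in the wild type. Site 12 at 389090, 10.6 kb to its right, had 0.597 and 0.639 in galactose and was at 0 in glucose and in both wild-type samples. Each sample thus used either site 11 or site 12, and none used both. With sites joined within 10000 bases they were still counted apart. Site 13 at 408157 had 0.696 and 0.582 with galactose, 0.808 with glucose, and 0.707 and 0.655 in the wild type, and site 14 at 486895 had 0.919 and 0.979 with galactose, 0.907 with glucose, and 0.744 and 0.819 in the wild type. The 78.7 kb between sites 13 and 14 held no site in any sample and was the longest gap between galactose sites of at least 0.3. In glucose and wild type the longest such gap was the 82.9 kb between 540017 and 622923, where site 18 was below that level.

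Between 486895 and 622923, sites 16 and 18 were weak or absent in glucose and wild type and stood high in galactose. Site 16 at 517538 had 0.862 and 1 with galactose, 0.176 with glucose, and 0.190 and 0 in the wild type. Wild type B had its own site 3.68 kb away, site 15 at 513862, with 0.330 there and 0 in the other 4 samples; joined within 5000 bases, the difference at site 16 between the galactose and wild-type means was 0.671 rather than 0.836. Site 17 at 540017 had 0.685 and 0.818 with galactose, 0.309 with glucose, and 0.469 and 0.666 in the wild type, so galactose E lay close to wild type B. Site 18 at 591473 had 1 and 0.853 with galactose, 0.248 with glucose, and 0.231 and 0.218 in the wild type. Site 18 alone thus split the long gap of glucose and wild type. Just right of it in glucose 67.6% of forks ran leftward. Site 19 at 622923 had 0.829 and 0.584 with galactose, 0.884 with glucose, and 0.618 and 0.527 in the wild type, with the groups overlapping.

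The right end of the interior held both gained and lost sites. Site 20 at 633931 was listed in galactose G alone, at 0.661, and site 21 at 655669 in wild type alone, at 0.114 and 0.129. Site 22 at 675516 had 0.482 and 0.565 in galactose and was at 0 in the other 3 samples. Site 23 at 704399 had 0.804 and 0.778 with galactose, 0.534 with glucose, and 0.619 and 0.80 in the wild type. Galactose and wild type overlapped at site 23, and glucose was the lowest there. Site 24 at 720655 had 0.262 and 0.377 in galactose, 0.384 in glucose and 0 in both wild-type samples, so it was shared by the samples of the strain with inducible factors and not by wild type. Site 25 at 741804 had 0.947 and 0.772 with galactose, 0.388 with glucose, and 0.563 and 0.520 in the wild type. Site 26 at 757628 had 0.639 and 0.659 with galactose, 0.155 with glucose, and 0.386 and 0 in the wild type. Both galactose samples were above the other 3 at sites 25 and 26. Site 27 at 773675 was listed in glucose alone, at 0.185.

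Counted over the 27 sites, 14 were listed in all 5 samples. Of the 22 sites listed in galactose E or G, 20 were in both, and of the 21 listed in wild type A or B, 17 were in both. New sites in galactose relative to glucose numbered 3, those at 93764, 389090 and 675516, or 11.1% of the 27, where 14.3% of all sites were of this kind. Of these, the 2 at 389090 and 675516 were in no sample of the other groups, 7.41% of the 27 beside 8.6% of all sites. Lost sites, listed in glucose and in neither galactose sample, were the 2 at 378479 and 773675, 7.41% beside 4.67% of all sites, and only the first was also in both wild-type samples. These 2 kinds of count use the contrast by which chromosome II was picked, and nothing is read from them. Both galactose samples were above all other 3 samples at 13 sites, or 48.1%, beside 51.6% of all sites, and below all 3 at 1 site, or 3.70%, beside 2.7%.

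Galactose was tested against wild type with limma on the probability of all 407 sites, with 3 groups and 5 samples, 2 residual degrees of freedom per site and Benjamini-Hochberg adjustment at 0.05. The wild-type samples had no part in the choice of chromosome II, but the galactose samples did. The probability was called higher in galactose at 9 of the 27 sites, or 33.3%, beside 35.9% of all sites, and called lower at 2, or 7.41%, beside 4.42%. The median difference was 0.167 over the 27 sites and 0.184 over all 407. The 9 include the sites at 389090 and 675516, which were listed only because galactose reached 0.1. The share of all sites holds sites of that kind too. As a description only, the shares on chromosome II were close to those of the genome. The 2 called lower, at 378479 and 655669, were weak sites of wild type not listed in either galactose sample. They are named here after their values were seen. Galactose counts as 0 there, with no spread, because sites below 0.1 were not listed. At 655669 wild type had 0.114 and 0.129, just above that limit, so that call rests on the limit.

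Among the 10 sites with the greatest difference from wild type, the adjusted p was lowest at 93764. There galactose exceeded wild type by 0.881 (SE 0.0178, limma adjusted p = 0.00241). Both galactose values were at 1, the upper limit of a probability, so they had no spread. The wild-type values of 0.115 and 0.122 were just above the listing limit. The new site at 389090 followed, with a difference of 0.618 (SE 0.0246, adjusted p = 0.00402). This site and the one at 675516 were listed only because galactose reached 0.1 there. Wild type at both, and at 720655, counts as 0 by that limit and has no spread. Nothing is therefore read from the p-values at these sites. The rise was 0.558 at 169192 (SE 0.0430, adjusted p = 0.0107) and 0.524 at the new site at 675516 (SE 0.0391, adjusted p = 0.0107). It was 0.702 at 591473 (SE 0.0640, adjusted p = 0.0141) and 0.564 at 143724 (SE 0.0553, adjusted p = 0.0151). Site 16 at 517538 rose by 0.836 (SE 0.0996, adjusted p = 0.0173), with the larger spread that wild type B brings. Site 24 at 720655 rose by 0.319 over wild type (SE 0.0514, adjusted p = 0.0300), although glucose was as high there as galactose. The remaining 2 were not called: 757628 differed by 0.456 (SE 0.162, adjusted p = 0.130), with wild type B at 0, and 633931 by 0.330 (SE 0.276, adjusted p = 0.414), with galactose E at 0.

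These calls rest on few samples. Of the 9 called higher, 7 were still called without galactose E, 6 without galactose G, 4 without wild type A and 4 without wild type B. The calls at 63358 and 93764 held without each of these 4 samples in turn. So did that at 389090, but wild type is 0 there by the listing limit. The 5 sites lost without wild type A, at 169192, 517538, 591473, 675516 and 720655, were also the 5 lost without wild type B. Neither of the 2 lower calls held without galactose E or without galactose G, while without wild type A the count of lower calls was 4.

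Glucose was set against wild type in the same fit, to ask how far the uninduced strain already differed from wild type on this chromosome. No site of the 27 was called higher, beside 1.97% of all sites, or lower, beside 0.983%. At an unadjusted p under 0.05, 8 of the 27 sites passed, or 29.6%, beside 23.6% of all sites. The median difference between glucose and wild type was 0 over the 27 sites. With 1 glucose sample, its spread is assumed to be that of the other groups. In the galactose against glucose contrast, which chose the chromosome, 8 of the 27 sites were called higher beside 24.6% of all sites and 2 lower beside 4.91%, and nothing is read from these.

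**Figure D3:**
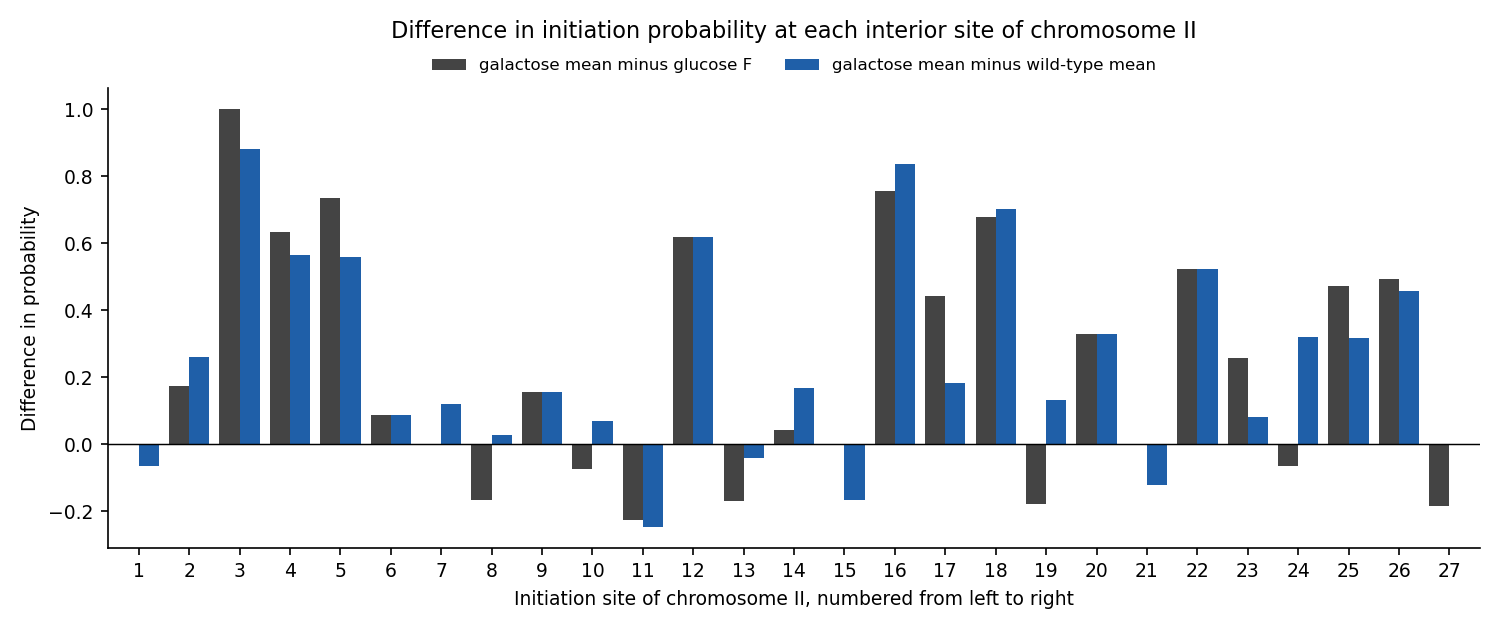
Difference in fitted initiation probability at each of the 27 interior sites of chromosome II, numbered from left to right: dark bars are the galactose mean (n = 2) minus glucose (n = 1) and blue bars the galactose mean minus the wild-type mean (n = 2). The tallest pairs of bars are at site 3 with 1.00 and 0.881, and at site 16, while sites 6 to 8, 10, 13 and 14 stay between -0.169 and 0.167.

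The gains changed the spacing of sites of at least 0.3, since more sites passed that level in galactose. Such sites numbered 19 and 22 with galactose, 13 with glucose, and 14 and 14 in the wild type. Listed sites of any level numbered 20 and 22 with galactose and 19 in each of the other samples. The median distance between neighbouring sites of at least 0.3 was 31.0 and 30.4 kb with galactose, 62.5 kb with glucose, and 53.1 and 38.0 kb in the wild type. Wild type B lay nearer to galactose than wild type A did. Described in stretches of 150 kb chosen after seeing the data, the gain was uneven. In chrII:30001-180000 the summed probability was 3.90 and 4.00 with galactose, 1.41 with glucose, and 1.59 and 1.90 in the wild type. In chrII:180001-330000 it was 3.66 and 4.02 with galactose, 3.83 with glucose, and 3.19 and 3.56 in the wild type. That second stretch, which holds the strong sites 6, 7, 8 and 10, differed by 0.00419 between the galactose mean and glucose. In chrII:330001-480000 it was 1.29 and 1.22 with galactose, 1.03 with glucose, and 0.974 and 0.880 in the wild type. In chrII:480001-630000 it was 4.30 and 4.23 with galactose, 2.52 with glucose, and 2.25 and 2.56 in the wild type, and in chrII:630001-780000 it was 3.13 and 3.81 with galactose, 1.65 with glucose, and 1.68 and 1.45 in the wild type. The first, the fourth and the fifth stretch thus differed from glucose by 2.54, 1.74 and 1.83 initiations, and the other 2 by 0.00419 and 0.224.

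Fork direction was read as the share of the fork probability that moves rightward, averaged in 5 kb windows. It comes from the same fitted segments as the initiation probabilities, so it is another view of them and not a separate measurement, and neighbouring windows are crossed by the same forks. Over the 150 windows, Pearson's r between the 2 galactose samples was 0.951, between the 2 wild-type samples 0.901, and between glucose and wild type A and B 0.888 and 0.838. Between a galactose sample and any of the other 3 it was 0.515 to 0.621. Galactose thus had its own pattern of fork direction, shared by both samples, and glucose was near wild type.

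Both galactose samples had the opposite majority direction from glucose in 37 of the 150 windows, or 24.7%, beside 16.6% of all windows, a count in the contrast that chose the chromosome. They were opposite to both wild-type samples in 25 windows, or 16.7%, beside 14.0%. They were opposite to all other 3 samples in 23 windows, or 15.3%, beside 10.5%. Glucose was opposite to both wild-type samples in 13 windows, or 8.67%, beside 8.01%. The 23 windows fell into 12 runs.

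In chrII:80001-95000, which ends at site 3, the rightward share was 10.6 and 12.1% with galactose, 81.7% with glucose, and 67.9 and 70.5% in the wild type. In chrII:170001-185000, to the right of site 5, it was 85.9 and 95.5% with galactose, 28.7% with glucose, and 23.4 and 27.2% in the wild type. In chrII:505001-515000, to the left of site 16, it was 14.7 and 0% with galactose, 75.7% with glucose, and 66.1 and 70.4% in the wild type. In all 3 of these runs most forks of galactose moved away from the site that had gained. That no value overlapped between galactose and the rest follows from picking the windows by opposite majority directions, so nothing is read from it. In chrII:590001-605000, at and to the right of site 18, it was 92.4 and 80.5% with galactose, 29.1% with glucose, and 38.7 and 33.8% in the wild type. In chrII:390001-395000, just right of the new site 12, it was 70.4 and 77.5% with galactose, 18.5% with glucose, and 27.3 and 30.1% in the wild type.

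A run at the left limit, chrII:30001-45000, had 97.6 and 85.9% with galactose, 0% with glucose, and 21.0 and 7.12% in the wild type. Its forks in galactose came from the left, where the site at 29070 lies outside the interior. In chrII:290001-300000, where the galactose samples differ in whether they list site 9, the share was 13.8 and 33.9% with galactose, 99.9% with glucose, and 85.9 and 83.9% in the wild type. In chrII:655001-665000, at the weak wild-type site 21, it was 31.0 and 17.7% with galactose, 93.8% with glucose, and 70.9 and 60.5% in the wild type. The other runs were single windows at chrII:215001-220000, chrII:680001-685000, chrII:725001-730000 and chrII:750001-755000. At the third of these, galactose G had 49.5%, close to the 50% line.

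**Figure D4:**
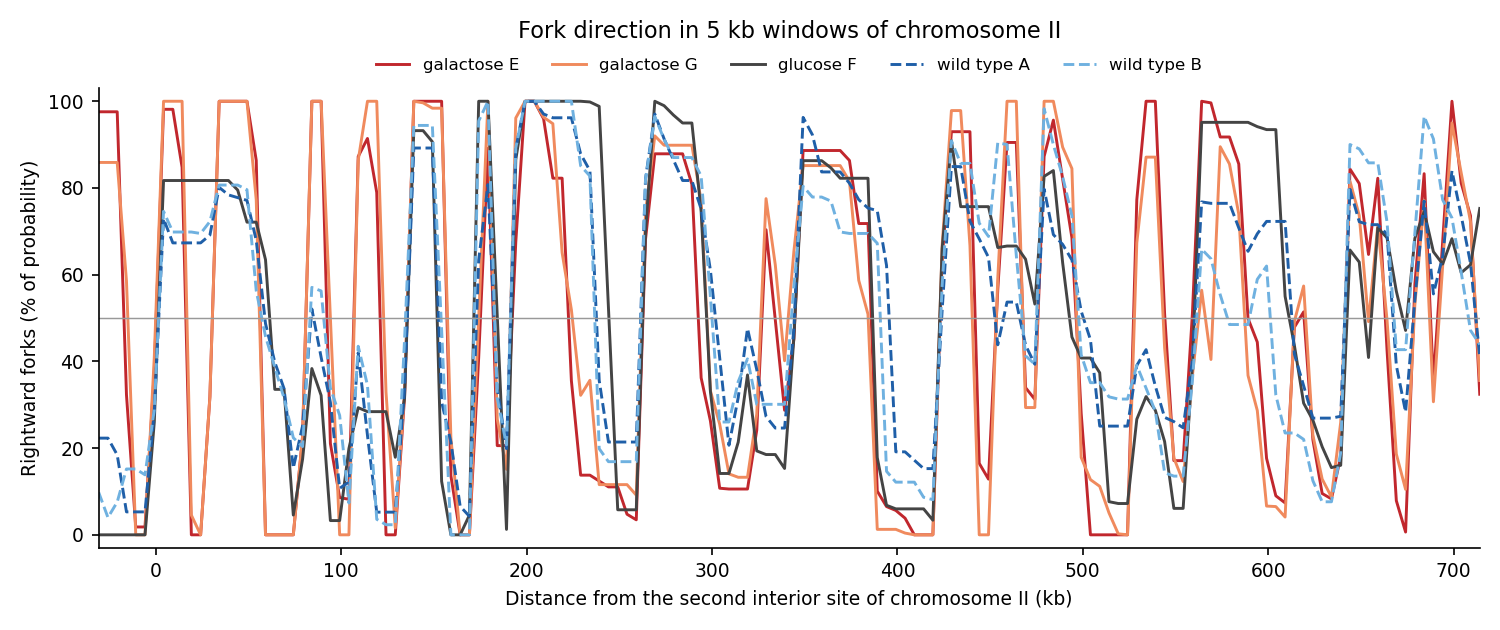
Rightward share of forks (vertical axis, %) in 5 kb windows along the interior of chromosome II, against distance in kb from the second interior site; solid lines are galactose E and G and glucose F, dashed lines wild type A and B, and the grey line marks 50%. The galactose lines cross to the other side of 50% from the other 3 samples in 23 of 150 windows, among them the stretch just left of site 3, near 30 kb, where they stand at 10.6 and 12.1%.

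With limma on all 2386 windows, the rightward share of galactose was called higher than wild type in 19 of the 150 windows, or 12.7%, beside 9.35% of all windows. It was called lower in 19 windows, or 12.7%, beside 9.09%. The called windows formed 18 runs, and the most extended, chrII:95001-115000, had 100% in both galactose samples, 78.8% in glucose, and 78.4 and 80.4% in the wild type. That is the upper limit of a share, so galactose had no spread there. Galactose also had no spread in the called runs chrII:120001-135000, at 0% in both samples, and chrII:145001-155000, at 100% in both. None of the 38 calls held without galactose E, and none without galactose G, while 14.0% of the windows were called without wild type A and 17.3% without wild type B. For glucose against wild type, limma called 0 of the 150 windows either way, beside 0.0% of all windows each way, with a lowest adjusted p of 0.0956. At an unadjusted p under 0.05, 32 of the 150 windows passed, or 21.3%, beside 18.6% of all windows.

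Forks were also more uniform between cells in galactose than in wild type. Windows with at least 90% or at most 10% rightward forks numbered 65 and 59 of 150 with galactose, 56 with glucose, and 18 and 34 in the wild type. Glucose was near galactose on this measure and away from wild type, and those 3 samples share the strain and the sequencing platform. The fits differ in a like way: chromosome II was described by 252 and 338 segments with galactose, 374 with glucose, and 554 and 445 in the wild type. The part of platform in either difference was not tested.

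Replication time is the probability-weighted mean time of the paths through a position, in minutes, at a fork speed that is a constant of the authors' fit, 2900 bases per minute. In each of the 5 samples the lowest time was 0 on all 16 chromosomes, so time counts from the earliest point of chromosome II in that sample and not from a common start. That point moved. It lay at 591489 in galactose E and at 63275 in galactose G, beside sites 18 and 2, against 234845 in glucose and 236345 and 235345 in the wild type, all beside site 7. Every time difference below therefore mixes the local change with the move of the zero.

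On these clocks the interior was copied over a narrower range of times in galactose. The median window time was 6.18 and 8.40 min with galactose, 17.0 min with glucose, and 16.9 and 15.1 min in the wild type. The SD over windows was 3.00 and 4.48 min with galactose, 6.72 min with glucose, and 7.37 and 6.44 min in the wild type. Unlike the median, this spread does not depend on where the zero lies. The latest window was at 13.7 and 19.1 min with galactose, 27.3 min with glucose, and 27.6 and 26.1 min in the wild type.

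The order in which the stretches were copied changed, and most of all at the 2 extremes. In chrII:180001-330000, around the strong sites 6 to 8, the mean time was 8.39 and 9.09 min with galactose, 7.79 min with glucose, and 5.72 and 6.62 min in the wild type. Ranked within the chromosome from earliest at 0 to latest at 100%, that stretch had a mean rank of 68.5 and 54.8% with galactose, 18.9% with glucose, and 14.8 and 19.4% in the wild type. In chrII:630001-780000 the mean time was 4.82 and 4.88 min with galactose, 22.6 min with glucose, and 23.1 and 16.3 min in the wild type. Its mean rank was 35.1 and 26.8% with galactose, 80.7% with glucose, and 82.0 and 60.9% in the wild type. The first of these stretches was the earliest of the 5 in glucose and in both wild-type samples, the third earliest in galactose G and the latest in galactose E. The other was the second earliest in both galactose samples, and the latest in glucose and in wild type A. The ranks do not depend on the zero, and in both stretches the 2 galactose samples lay apart from the other 3, while glucose lay between the wild-type samples.

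The other 3 stretches were less settled. In chrII:30001-180000 the mean time was 7.62 and 4.10 min with galactose, 12.2 min with glucose, and 10.1 and 8.19 min in the wild type. In chrII:330001-480000 it was 6.84 and 13.6 min with galactose, 19.3 min with glucose, and 17.5 and 17.2 min in the wild type. In chrII:480001-630000 it was 4.42 and 10.6 min with galactose, 18.7 min with glucose, and 21.6 and 20.7 min in the wild type. The galactose samples differed from each other by several minutes in all 3. Over the 150 windows they differed by 3.68 min on average and by at most 8.86 min, with r = 0.465, against r = 0.903 between the wild-type samples and 0.932 between glucose and wild type A.

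**Figure D5:**
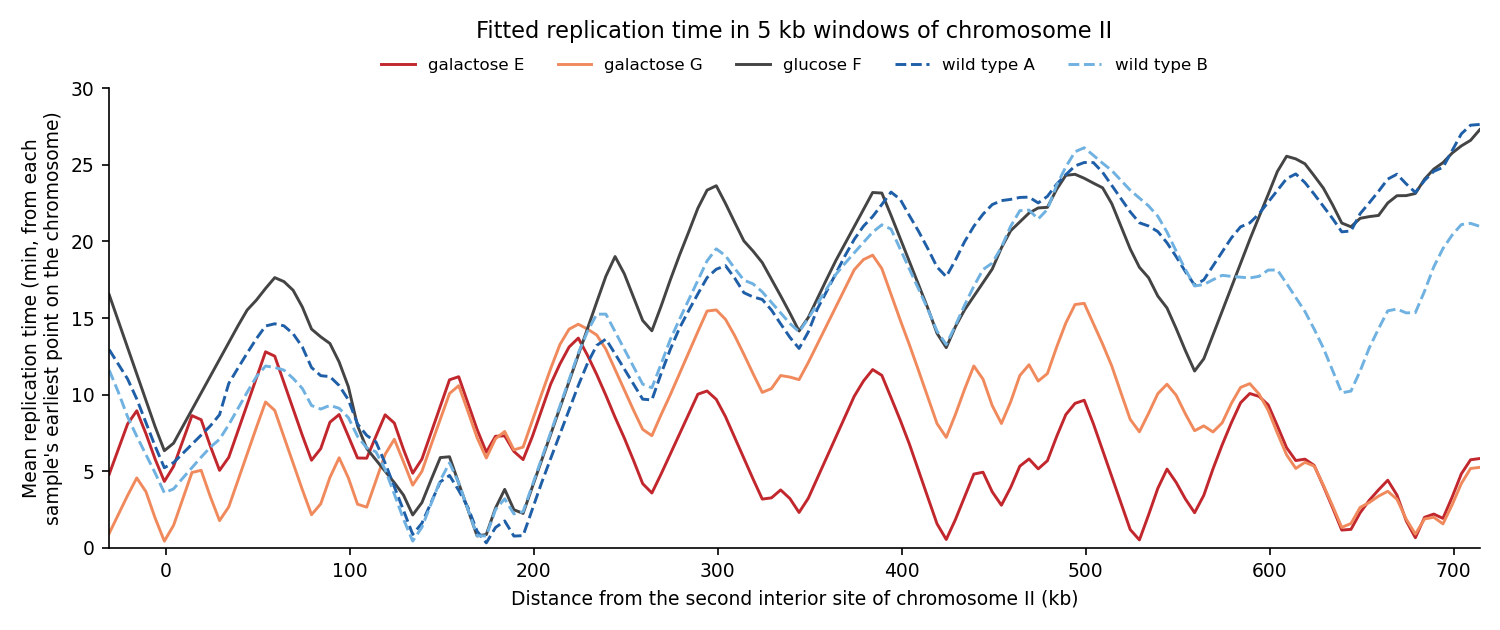
Fitted mean replication time (vertical axis, min from each sample's earliest point on the chromosome) in 5 kb windows along the interior of chromosome II, against distance in kb from the second interior site; solid lines are galactose E and G and glucose F, dashed lines wild type A and B. Galactose reaches at most 19.1 min in any window and lies above the other 3 samples in 22 windows around sites 6 to 8.

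Both galactose samples were earlier than all other 3 in 114 of the 150 windows, or 76.0%, beside 40.5% of all windows, and later than all 3 in 22 windows, or 14.7%, beside 8.05%. The 22 later windows were 1 run, chrII:180001-290000, with 8.57 and 8.43 min with galactose, 4.69 min with glucose, and 3.57 and 4.28 min in the wild type. The largest earlier run was chrII:300001-780000, 96 windows, with 5.43 and 9.70 min with galactose, 20.0 min with glucose, and 20.1 and 17.8 min in the wild type. These counts depend on the zero: with each sample centred on its own median over the interior, 38 windows were earlier and 46 later in both galactose samples than in the other 3. That centring was chosen after seeing the data.

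Tested with limma on the times as deposited, galactose was earlier than wild type in 10 of the 150 windows, or 6.67%, beside 7.8% of all windows. These were chrII:590001-595000, chrII:630001-640000 and chrII:745001-780000, and in the last the mean time was 3.69 and 3.27 min with galactose, 25.7 min with glucose, and 25.9 and 19.8 min in the wild type. No window was called later, beside 0.0% of all windows, though 8 of the 150, or 5.33%, passed an unadjusted p under 0.05 in that direction, beside 5.83%. With each chromosome of each sample centred on its median, 22 windows were called later, or 14.7%, beside 4.78%, and 4 were called earlier, or 2.67%, beside 5.49%. The 22 were again chrII:180001-290000 and the 4 were chrII:750001-770000. On either scale no window was called without any one of galactose E, galactose G, wild type A or wild type B. With chromosomes centred and 1 of these samples left out, 25 to 48 windows were later and 9 to 22 earlier at an unadjusted p under 0.05. Glucose against wild type gave no call on the times as deposited, beside 3.77% of all windows called later and 0.0% earlier, and no window of the 150 passed an unadjusted p under 0.05, beside 15.3% of all windows.

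Terminations are the points where converging forks meet, and in a fit of this kind each added initiation brings an added meeting point. Their summed probability in the interior was 16.9 and 17.8 with galactose, 9.61 with glucose, and 9.53 and 10.0 in the wild type. Meeting points used in at least 0.5 of cells numbered 16 and 14 with galactose, 5 with glucose, and 4 and 4 in the wild type. In galactose 3 had a probability of at least 0.981 in both samples, at 79673 and 80243, at 119622 and 119173, and at 220388 and 220953 in E and G. The first 2 of these lie on either side of site 3.

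Between sites 2 and 4, galactose thus had 2 such meeting points where each of the other samples had 1 crossing. The rightward share fell through 50% at 79478 and 80263 and again at 119710 and 119236 in galactose E and G, while glucose crossed at 124129 and wild type A and B at 118562 and 116669. Between sites 6 and 7, where both bounding sites were shared, the crossing lay at 220614 and 220896 with galactose, 215390 with glucose, and 215720 and 217479 in the wild type. The galactose mean lay 5.36 kb to the right of glucose and 4.16 kb to the right of the wild-type mean, with 0.283 kb between the galactose samples and 1.76 kb between the wild-type samples. Site 7 itself also lay further right in galactose, at 238205 and 237680, against 234961 in glucose and 236162 and 235115 in the wild type. As a share of the distance from site 6 to site 7, the crossing lay at 55.7 and 57.1% with galactose, 46.5% with glucose, and 46.1 and 52.2% in the wild type. Between sites 7 and 8 the crossing lay at 244656 and 245656 with galactose, 247614 with glucose, and 246281 and 245806 in the wild type. In the long gap between sites 13 and 14 it lay at 450040 and 449560 with galactose, 450443 with glucose, and 459018 and 455159 in the wild type. There the galactose mean minus the wild-type mean was -7.29 kb and the galactose mean minus glucose -0.643 kb, so glucose stood with galactose. None of these shifts was tested.

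The segments add up to a total path probability that should be 1 at each position. In the interior of chromosome II the sum ranged over 0.978 to 1 and 0.968 to 1 in galactose E and G, 0.879 to 1.13 in glucose, and 0.939 to 1.04 and 0.955 to 1 in wild type A and B. The glucose sum thus strayed furthest from 1, and glucose has no replicate to measure the margin of its site values. By how often the sum was off, wild type stood above glucose. It was off by more than 2% at 49.4 and 37.2% of positions in wild type A and B. In glucose this share was 20.5%, and in galactose E and G 2.16 and 8.33%.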

How the data were processed

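Okazaki fragments of 5 samples were measured, and the deposited files hold fits to them. Per the labels, each deposited segment has a time in minutes and a probability, a fraction of 0 to 1, and the averaged table gives the weighted mean time at steps of 500 bases. Neither aligner nor build nor fitting software is given in the sources used here, and counts of fragments per base were not analysed here. Sites, fork direction and meeting points were read from the segments, with starts within 0.05 min joined and windows kept where at least 50% of their positions had values. Samples were grouped by the labelled medium and strain. limma 3.58.1 in R 4.3.3 was fitted over all sites or windows of the genome and adjusted over all of them, and was tested on simulated data with known changes. Summaries used Python 3.11.15 with pandas 2.3.3 and numpy 2.4.6.

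The 27 sites, the chromosome and the lists of stretches and classes were chosen with earlier results of these data known. All 27 sites are named with their values, and limma values are printed for the 10 with the greatest difference between galactose and wild type. With 2 samples against 2, an exact permutation test of a single value cannot reach 0.05, so none is given. The alternatives tried were other minimum probabilities, joining distances, window sizes, end margins, scales and time zeros, and leaving out each replicate in turn.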

Additional observations from a re-analysis of the deposited data

How the results depend on the processing

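Over 26 results and 253 alternatives, 193 kept the direction and the side of the threshold or stayed within the spread. Of the rest, 42 moved, 16 ended a call, 2 made one and 0 turned round. The 193 include settings that could not change a result, such as the galactose to glucose ratio without a wild-type sample. Taking the whole chromosome gave a summed probability of 18.4 in galactose and a galactose to glucose ratio of 1.71, and a minimum of 0.2 per site gave a ratio of 1.69; the other settings left the ratio to glucose between 1.56 and 1.66 and the ratio to wild type between 1.62 and 1.74. At a minimum of 0.2 there were 5 new and 1 lost sites, 1 site lower than wild type and 1 lower than glucose. Joining within 1000 bases gave 5 new and 4 lost sites and 2 sites of glucose higher than wild type. On the arcsine scale 2 sites of glucose were higher and 2 lower than wild type, and 5 of galactose higher than glucose. From the rise of the rightward share, a setting added after seeing the data, 1 site was lower in galactose than wild type. Centring times on the median of each sample left 0 windows called against wild type, and on that of each chromosome, also added later, 17.3%.

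Leaving out 1 galactose or wild-type replicate at a time gave 5 to 9 sites higher and 0 to 4 lower in galactose than wild type, 1 to 2 higher and 0 to 5 lower in glucose than wild type, 3 to 8 higher in galactose than glucose, 3 to 5 new sites, 0 to 17.3% of windows called for fork direction, and 0 for time, as deposited or centred on each chromosome. Among the 10 sites with printed limma values, 16 settings ended a call and 2 made one: 757628 had an adjusted p of 0.0172 without wild type A, and 633931 one of 0.00682 without galactose E. No paired analysis was possible because the labels give the groups no shared replicate numbers. With 2 residual degrees of freedom the calls lean on the pooled spread, glucose, with 1 sample, borrows its spread from the other groups, and depth is unknown.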

Other observations

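The outer 30 kb of chromosome II held 5 sites. Besides those at 29070 and 792011, the site at 804110 was at 0 in both galactose samples and in glucose, against 0.322 and 0.253 in wild type. The sites at 1355 and 6437 were each listed in 1 wild-type sample, with 0.113 in wild type B and 0.223 in wild type A.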
